A study of Mus musculus with 24 samples.

Results

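The 7 mature mouse miRNAs described here, mmu-miR-9-5p, mmu-miR-9-3p, mmu-miR-124-3p, mmu-miR-128-3p, mmu-miR-132-3p, mmu-miR-137-3p and mmu-miR-138-5p, were taken by name as miRNAs known to be enriched in brain, out of 1966 mature miRNAs in the count table. They are written without the species prefix below. Small RNA of extracellular vesicles (EVs) from serum was sequenced in 1 library per mouse, in 24 male wild type C57BL/6 mice of 14 to 16 weeks. The 6 Control mice had no surgery and received saline, and 6 mice each were bled 6 h (S6h), 24 h (S24h) and 72 h (S72h) after an open tibia fracture that was fixed with a pin under isoflurane and buprenorphine, with daily analgesia at the later times. The comparison asked whether the content of circulating EVs differs after surgery. Per the study's methods, Control was the set of control mice kept with the S6h group, used for all times because the authors found no statistical difference between it and the set kept with the later groups. That later set was not analysed here. For S24h and S72h, but not for S6h, surgery and set of animals therefore cannot be told apart in these libraries. Per the study, no group had anesthesia alone. At every time, S6h included, surgery thus cannot be told apart from the anesthesia and analgesia given with it.

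Of the 7 miRNAs, 5 had at least 1 count in the 24 libraries, and miR-128-3p alone held 98.2% of their counts. miR-128-3p was present in every library, at a median of 11000 CPM (the count divided by the library's total count, times 1e6). miR-132-3p and miR-9-5p were each found in all 6 Control libraries, at medians of 69.6 and 238 CPM, and in 2 of 6 S24h libraries. miR-9-3p and miR-124-3p were detected in 9 and 4 libraries, and miR-137-3p and miR-138-5p in none. Of the 3 members that could be tested, edgeR called none between any 2 groups, and the calls that limma-voom made at 24 h are given with their limits below.

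miRNAs are short RNAs that guide Argonaute proteins to messenger RNAs, mainly through the seed, bases 2 to 8 from the 5′ end, and reduce the translation or stability of their targets. miR-124 is the most neuron-restricted of the 7 and represses non-neuronal genes. miR-9 acts in neural progenitors and their differentiation, and both arms of its hairpin give functional miRNAs. miR-128 limits neuronal excitability, miR-132 is induced by neuronal activity through CREB and shapes dendrites, miR-137 acts in neuronal maturation, and miR-138 acts at dendritic spines. Of these, miR-128 and miR-132 are also made outside the nervous system, for example in muscle, blood cells and endothelium. RNA in serum EVs can come from any tissue in contact with blood, and a count does not name its source. Because whole serum EVs were sequenced, fewer vesicles of a kind and less of a miRNA per vesicle cannot be told apart.

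Mature sequences were found in RefSeq, assembly GRCm38.p6, for 6 of the 7 members. They are shown with the seed in capitals, since the seed tells the members apart, and miR-212-3p is added because it is the other miRNA with the seed of miR-132-3p.
miR-128-3p: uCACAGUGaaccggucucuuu
miR-132-3p: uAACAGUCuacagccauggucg
miR-212-3p: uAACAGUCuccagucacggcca
miR-9-5p: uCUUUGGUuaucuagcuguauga
miR-9-3p: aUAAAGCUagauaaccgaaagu
miR-137-3p: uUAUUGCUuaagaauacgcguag
miR-138-5p: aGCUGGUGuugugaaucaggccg
No 2 of the 6 members shown had the same seed, so they do not form a family. miR-132-3p and miR-212-3p matched at 17 of 22 positions counted from the 5′ end. Among the miRNAs of the table with a sequence in RefSeq, no other had their seed.

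Several members come from more than 1 gene, and their counts cannot be assigned to a locus, because the mature sequences are the same. Hairpin positions are from RefSeq and the genes around them from the Gencode annotation, both of GRCm38. miR-128-3p comes from Mir128-1 at chr1:128202361-128202430, in an intron of R3hdm1, and from Mir128-2 at chr9:112118636-112118711 on the minus strand, in an intron of Arpp21. miR-132-3p comes from 1 locus, Mir132 at chr11:75173682-75173747. Mir212 lies at chr11:75173388-75173478 on the same strand, with 203 bases between the hairpins, and both lie in an intron of 1700016P03Rik. The 3 hairpins of miR-9 lie at chr3:88215598-88215686, chr13:83738814-83738885 and chr7:79505264-79505353. Mir137 lies at chr3:118433857-118433929, and miR-138-5p comes from Mir138-1 at chr9:122682876-122682974 and Mir138-2 at chr8:94324311-94324381.

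The total count of a library fixes what a single count is worth in CPM. Total counts were 63956 to 263211 in the Control group (median 117578.5), 102568 to 471801 in S6h (median 177467.5), 66652 to 143856 in S24h (median 75030) and 65017 to 245013 in S72h (median 94427.5). A single count was worth 2.12 to 15.6 CPM. A count of 0 allows up to 3 counts, or 6.36 to 46.9 CPM depending on the library. This limit covers counting error only. Random adapter bases were trimmed, and the study's methods describe no step that collapses reads into separate molecules. The median number of all miRNAs with a count was 272 in Control, 292 in S6h, 239 in S24h and 277.5 in S72h, so that S24h libraries were both the shallowest by median and the ones with the fewest miRNAs. The part of depth in the detection of the members was not tested.

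The members together had 36162 counts, 1.08% of all counts, and 35510 of these were miR-128-3p. The other members had 652 counts, 0.0194% of all counts. Ranked by mean CPM over the 24 libraries among the 667 miRNAs with a count, miR-128-3p was at position 24 with 11300 CPM, miR-9-5p at 159 with 113 CPM, miR-132-3p at 244 with 41.7 CPM, miR-9-3p at 273 with 22.9 CPM and miR-124-3p at 404 with 6.69 CPM. Mature miRNAs are of nearly equal length (21 to 23 bases for the members shown), so CPM was set side by side without dividing by length. Adapter ligation favours some ends over others, and these ranks are ranks of counts.

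**Figure D1:**
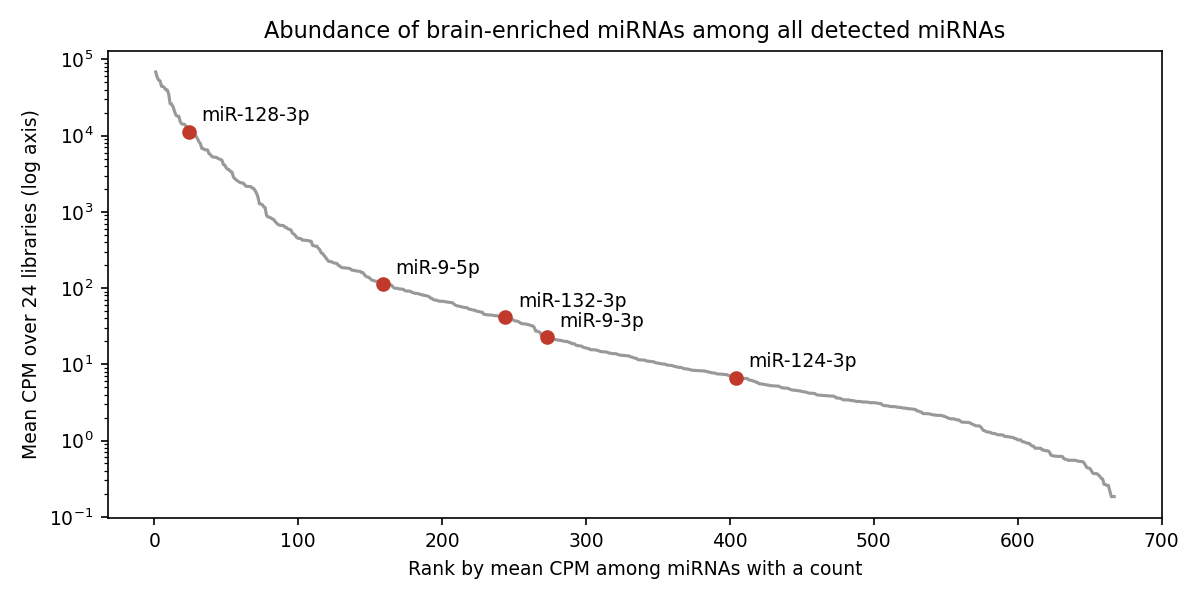
Mean CPM over the 24 libraries (log axis) against abundance rank for the miRNAs with a count, with the 5 detected brain-enriched miRNAs labelled. miR-128-3p sits at rank 24, and the other members lie between ranks 159 and 404.

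miR-128-3p was counted in 24 of 24 libraries, at 4180 to 17500 CPM. In the Control group its level was 4180 CPM in the lowest library, 10800 CPM at the median and 14200 CPM in the highest, from 561 to 2620 counts. In S6h the corresponding levels were 8120, 10400 and 14500 CPM, in S24h 5810, 12900 and 17500 CPM, and in S72h 6780, 13800 and 16200 CPM. The ranges of the 4 groups overlapped, with the lowest library in Control (replicate 4) and the highest in S24h (replicate 5). The variance of the counts between the mice of a group was 76.8 to 198 times that of independent counts, a description that holds differences between mice and amplification as well as counting.

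In edgeR's quasi-likelihood test with Benjamini-Hochberg adjustment over the 252 tested miRNAs, the log2 fold change of miR-128-3p against Control was 0.11 (standard error 0.27, adjusted p = 0.991) at 6 h. It was 0.12 (standard error 0.27, adjusted p = 0.82) at 24 h and 0.27 (standard error 0.27, adjusted p = 0.666) at 72 h. The 95% intervals of the log2 fold change ran from -0.45 to 0.66, from -0.43 to 0.68 and from -0.29 to 0.82, so that changes of more than those sizes are outside them, and smaller ones are not. The direction at 6 h and 24 h depended on single libraries. When libraries were left out singly, the log2 fold change ranged from -0.042 to 0.28 at 6 h and from -0.028 to 0.40 at 24 h. At 72 h it stayed positive, from 0.12 to 0.37.

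miR-132-3p had 165 counts in 16 libraries. In the Control group its level was 29.8, 69.6 and 91.2 CPM (lowest, median and highest), from 4 to 24 counts. In S6h it was 13.5, 62.4 and 119 CPM, from 2 to 32 counts. Every Control and every S6h library thus held at least 2 counts of miR-132-3p. In S24h the median was 0 CPM, with 5 counts (67.8 CPM) in replicate 2, 1 count (13.6 CPM) in replicate 5 and 0 in the other 4 libraries. In S72h the median was also 0 CPM, with 14 counts (105 CPM) in replicate 6, 4 counts (36.1 CPM) in replicate 4 and 0 in the other 4. The groups overlapped, because the highest library of each later group reached the Control range.

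Summed over the libraries of a group, miR-132-3p was at 68.2 CPM in Control, 66.7 in S6h, 10.8 in S24h and 25.4 in S72h. It was 2.08 CPM in S24h without replicate 2, and in S72h 6.95 CPM without replicate 6 and 38.8 CPM without replicate 1. At the summed Control level the S24h libraries would hold 4.54 to 9.81 counts each and the S72h libraries 4.43 to 16.7. These are descriptions, since a count of 0 lies below any such average. The variance between Control libraries was 1.11 times that of independent counts, against 4.1 in S6h, 5.31 in S24h and 9.08 in S72h.

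Against Control, the log2 fold change of miR-132-3p was 0.06 at 6 h (standard error 1.17, edgeR adjusted p = 0.991), -2.44 at 24 h (standard error 1.30, edgeR adjusted p = 0.202) and -1.27 at 72 h (standard error 1.22, edgeR adjusted p = 0.652). The 95% interval at 24 h ran from -5.09 to 0.21. The difference at 24 h did not pass the test, with an unadjusted p of 0.0701 in edgeR. S24h replicate 2 decided this: without it the S24h group held 1 count, the fitted log2 fold change was -4.47 and the edgeR adjusted p 0.0402. Over the other ways of testing with all libraries, limma-voom gave -2.92 and an adjusted p of 0.0291, and none of the others called it. The 6 Control and 6 S6h libraries alone brought miR-132-3p past the low filter of 10 CPM in 12 libraries, that is, through the groups where it is higher, so these calls are given as descriptions. At 6 h the sign was not settled, since 6 of the 10 alternatives gave values from -0.37 to -0.022, among them DESeq2, RLE and column totals.

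miR-9-5p, the arm of the miR-9 hairpin that represses neural progenitor genes, had 380 counts in 18 libraries. In the Control group its level was 7.45, 238 and 475 CPM (lowest, median and highest), from 1 to 125 counts. In S6h it was 0, 56.6 and 192 CPM, with 5 of 6 libraries holding a count. In S24h replicate 5 had 23 counts (312 CPM), replicate 4 had 5 counts (75.0 CPM) and the other 4 had 0. In S72h 5 of 6 libraries had a count, at a median of 42.5 and a highest level of 246 CPM. The groups overlapped throughout, and Control itself spanned from 1 count in replicate 4 to 125 in replicate 1.

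The summed level of miR-9-5p was 271 CPM in Control, 71.3 in S6h, 50.5 in S24h and 62.0 in S72h. At the summed Control level the S24h libraries would hold 18.1 to 39.1 counts each. Control replicate 1 held 125 of the Control counts, and without it the summed Control level was 170 CPM and the S24h libraries would hold 11.3 to 24.5 counts each. Without S24h replicate 5 the summed S24h level was 10.4 CPM. These levels without a library were computed after the data had been seen. The variance between the mice of a group was 12.1 to 24.3 times that of independent counts. Log2 fold changes against Control were -1.64 at 6 h (standard error 1.2, edgeR adjusted p = 0.991), -2.01 at 24 h (standard error 1.24, edgeR adjusted p = 0.284) and -1.57 at 72 h (standard error 1.21, edgeR adjusted p = 0.523). All 3 values were negative and none passed the test, with 95% intervals from -4.08 to 0.80, from -4.53 to 0.51 and from -4.04 to 0.90. The value at 24 h ranged from -4.15, without S24h replicate 5 (edgeR adjusted p = 0.0575), to -1.49 when libraries were left out singly. With limma-voom the value at 24 h was -3.55 and the adjusted p 0.0289, the only call of miR-9-5p against Control among the tests tried. The libraries outside S24h were enough to bring miR-9-5p past the low filter of 10 CPM in 12 libraries. It thus passed through the groups where it is higher, and this call too is given as a description.

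**Figure D2:**
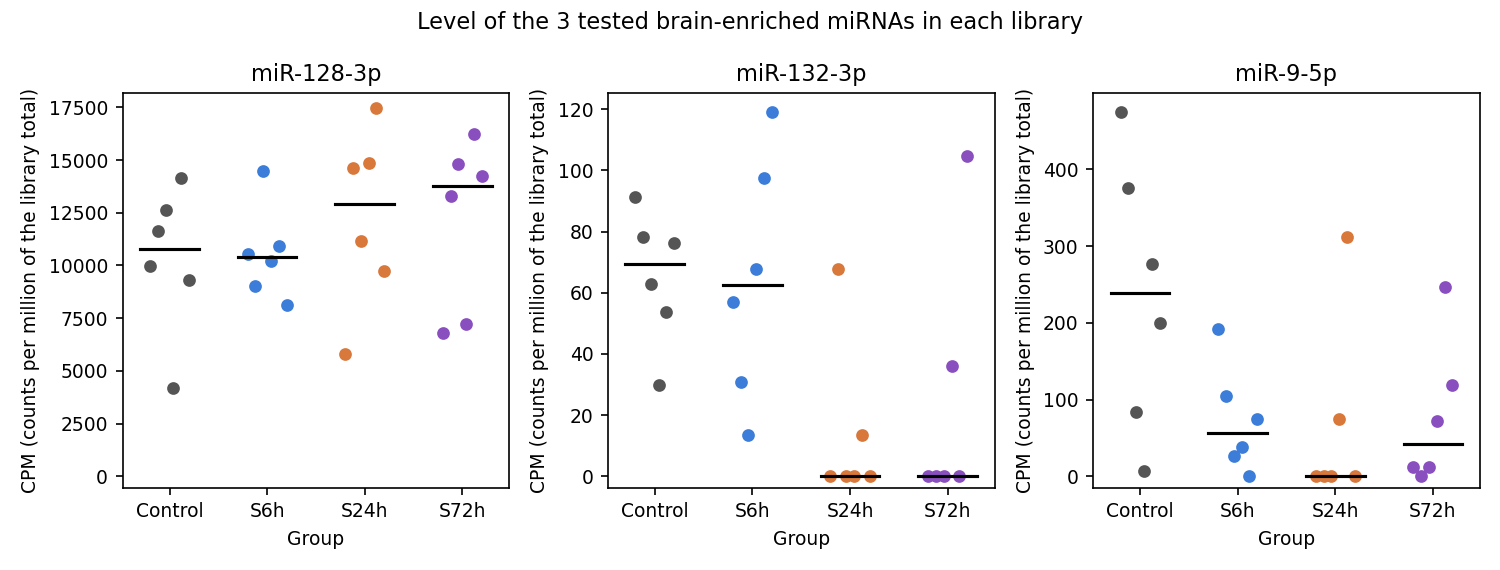
CPM by column totals of miR-128-3p, miR-132-3p and miR-9-5p in each library by group, with points for the 6 mice of a group and bars for the median. Levels of miR-128-3p overlap in all groups, while the S24h medians of miR-132-3p and miR-9-5p are 0, with libraries at 67.8 and 312 CPM above them.

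miR-9-3p, the other arm, did not pass the low filter (10 CPM in at least 12 libraries) and had 80 counts in 9 libraries. Its level was 0, 7.45 and 172 CPM in Control, where 3 libraries had a count, and 0, 12.6 and 192 CPM in S6h, where 5 had. All 6 S24h libraries were at 0, which allows 5.42 CPM over the group, and in S72h 1 library had 2 counts (18.0 CPM). At the summed Control level the S24h libraries would hold only 2.02 to 4.36 counts each. With a filter of 10 CPM in at least 6 libraries miR-9-3p entered the test among 323 miRNAs. In S24h against S6h edgeR then called it (log2 fold change -5.66, edgeR adjusted p = 0.0369), with 16 of the 323 called higher and 40 lower. Against Control at 24 h miR-9-3p was not called (log2 fold change -5.50, edgeR adjusted p = 0.0513). It passed that filter without any S24h library, through the groups where it is higher. Without a low filter its log2 fold change in S24h against S6h was -5.62 and it was not called (edgeR adjusted p = 0.0907). The call with the filter of 6 libraries is therefore given as a description.

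The arms of miR-9 were found together in 8 libraries, 7 of them Control or S6h. miR-9-5p was found without miR-9-3p in 10 libraries, miR-9-3p without miR-9-5p in 1, and neither in 5. miR-9-3p had the larger count in 3 libraries and the same count (18) in 1, S6h replicate 4. Thus the arm with more counts was not the same in every library, at counts that were mostly low.

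miR-124-3p, the defining neuronal miRNA of the list, had 27 counts in 4 libraries. Control replicate 6 had 3 counts (28.6 CPM), S6h replicate 1 had 20 counts (104 CPM), and S6h replicates 5 and 6 had 2 counts each. In S24h and S72h all libraries were at 0, which allows 5.42 and 4.23 CPM over the groups. miR-137-3p and miR-138-5p were at 0 in 24 of 24 libraries, which allows 0.893 CPM over all libraries. Most of the signal of miR-124-3p thus came from 1 library, and no difference between groups could be read from these counts.

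**Figure D3:**
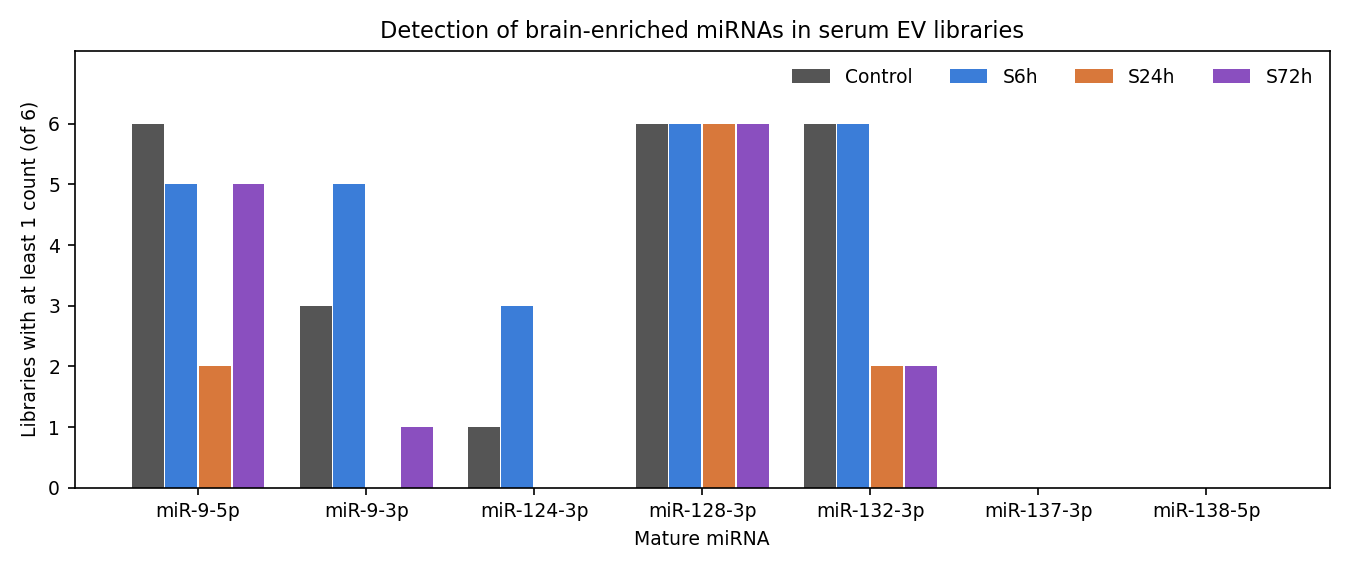
Number of libraries of each group, out of 6, in which each of the 7 miRNAs had at least 1 count. miR-128-3p was found in all libraries, miR-132-3p in 6, 6, 2 and 2, miR-9-5p in 6, 5, 2 and 5 (Control, S6h, S24h and S72h), and miR-137-3p and miR-138-5p in none.

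Per library, the median number of members with a count was 4 in Control, 4 in S6h, 1.5 in S24h and 2 in S72h. In 3 S24h libraries and 1 S72h library miR-128-3p was the only member with a count, and this was so in 0 Control and 0 S6h libraries. The summed level of the members other than miR-128-3p was 52.1, 360 and 625 CPM in Control (lowest, median and highest), 40.5, 176 and 368 CPM in S6h, 0, 33.9 and 325 CPM in S24h and 0, 69.4 and 246 CPM in S72h. Levels of the sum overlapped between all groups, and the sum was not tested.

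Other tested miRNAs showed the same pattern of detection. By a rule chosen after the values were seen, a count in 6 of 6 Control and in at most 2 of 6 S24h libraries, 6 of 252 tested miRNAs were found (2.38%), namely miR-132-3p, miR-9-5p, miR-200a-3p, miR-215-3p, miR-224-5p and miR-29c-3p. The same rule between Control and S72h gave 2 (0.794%), miR-132-3p and miR-511-5p. Between S6h and S24h it gave 11 (4.37%) and between S6h and S72h 6 (2.38%), with miR-132-3p in both. The set of 11 also held the neural miR-218-5p and the muscle miR-499-5p, and miR-132-3p was in all 4 sets.

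Of the 7 members, the 3 that passed the low filter were called in 0 of the 6 comparisons by edgeR (threshold 0.05 for the adjusted p, and 1.5 for the fold change in either direction). None had an unadjusted p under 0.05 in edgeR, and in no comparison did the levels of 2 groups not overlap. DESeq2 called none of the 3 either, and its own filter on low means left 5 of the 18 member comparisons without an adjusted p. In contrast, limma-voom called miR-9-5p and miR-132-3p lower in S24h than in Control, where it called 47 of all 252 miRNAs, and miR-132-3p lower in S24h than in S6h, where it called 66. Of all 252 tested miRNAs, edgeR called 0 (0%) at 6 h against Control, where 9 (3.57%) had an unadjusted p under 0.05 and neither DESeq2 nor limma-voom called any. It called 30 (11.9%) at 24 h and 9 (3.57%) at 72 h against Control, with 29.4% and 19% at an unadjusted p under 0.05. The count at 72 h was unstable, at 0 with only the 2 groups in the model, 1 with the replicate block or without Control replicate 2 or 5 or S72h replicate 5, 14 without S72h replicate 1 and 27 with DESeq2. Levels did not overlap for 0 (0%), 12 (4.76%) and 3 (1.19%) of the tested miRNAs in these comparisons.

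The values at 24 h stand beside a median of -0.21 for the log2 fold changes of the 252 miRNAs, which was 0.08 with upper quartile scaling. With TMM 10 miRNAs were called higher and 20 lower in S24h against Control, with RLE 18 and 19, with column totals 17 and 20 and with upper quartile scaling 23 and 17. The log2 fold changes of miR-132-3p and miR-9-5p against Control at 24 h and at 72 h were negative under each of these scalings.

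**Figure D4:**
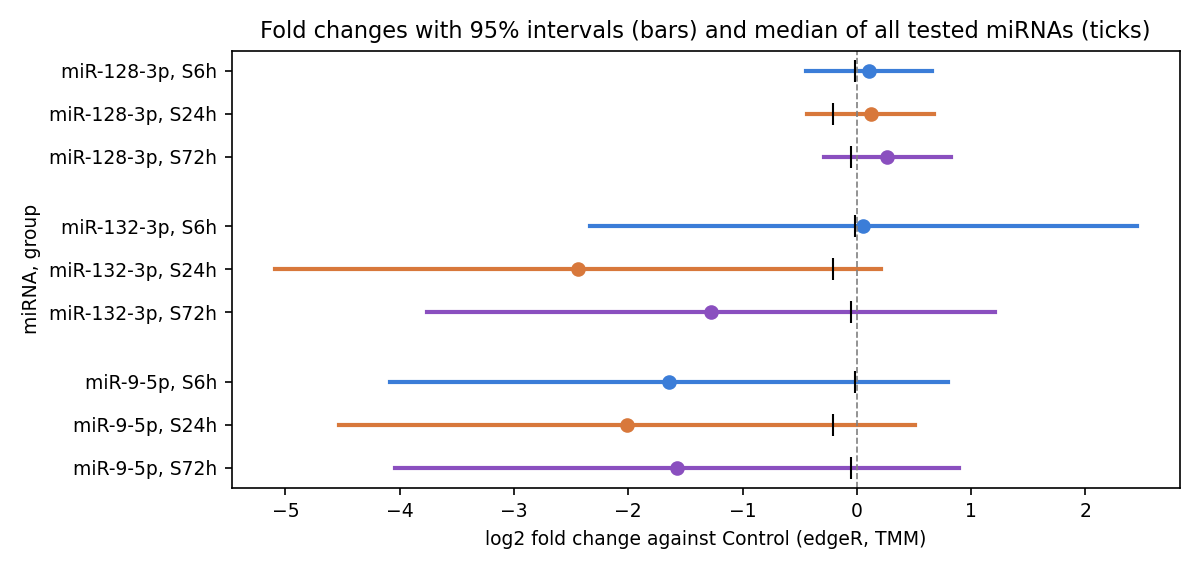
Log2 fold changes against Control from the edgeR model for miR-128-3p, miR-132-3p and miR-9-5p at 6 h, 24 h and 72 h, with points for the estimate, bars for the 95% interval and black ticks for the median of all tested miRNAs. All 9 intervals include 0, those of miR-128-3p staying between -0.45 and 0.82 and that of miR-132-3p at 24 h spanning -5.09 to 0.21.

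Between surgery groups, edgeR called 51 of 252 miRNAs (20.2%) in S24h against S6h, 25 (9.92%) in S72h against S6h and 1 (0.397%) in S72h against S24h, and no member was among them. An unadjusted p under 0.05 was found for 29%, 21% and 11.5% of the tested miRNAs in these comparisons, and levels did not overlap for 10.3%, 1.59% and 0%. Among the 3 tested members the largest difference was that of miR-132-3p between S24h and S6h, with a log2 fold change of -2.50 (standard error 1.30, edgeR adjusted p = 0.196, 95% interval from -5.14 to 0.15). Without S24h replicate 2 it was -4.53 with an edgeR adjusted p of 0.0348, and with limma-voom -2.76 with an adjusted p of 0.0265. In S72h against S6h miR-132-3p had a log2 fold change of -1.33 (edgeR adjusted p = 0.654), and in S72h against S24h 1.17 (edgeR adjusted p = 0.886). For miR-9-5p the 3 values were -0.37, 0.07 and 0.44 and for miR-128-3p 0.01, 0.16 and 0.14. The comparisons share groups, so their values are not independent of each other.

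The other arms of the members' hairpins were mostly silent. Of 7 such arms, 3 had a count and none passed the low filter. miR-132-5p had 42 counts, of which 41 (285 CPM) were in S24h replicate 6, a library with 0 counts of miR-132-3p, and 1 was in S72h replicate 3. miR-138-2-3p had 34 counts in 3 libraries, 19 in S6h replicate 4, 10 in S6h replicate 5 and 5 in S72h replicate 3, while miR-138-5p was at 0 in all of them. miR-128-2-5p had 1 count in S24h replicate 4. The neighbour miR-212-3p had 5 counts, all in Control replicate 2 (78.2 CPM), and miR-212-5p had 0. The counts of miR-132-5p and miR-138-2-3p thus did not go with counts of the partner arm in the same library.

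Of 15 other miRNAs known from neural tissue, 8 had a count and 2 passed the low filter. miR-7a-5p, which is abundant in neurons and in endocrine cells, was counted in 24 of 24 libraries at a mean of 897 CPM. Its level was 762, 1160 and 2380 CPM in Control, 235, 915 and 1230 CPM in S6h, 352, 559 and 1170 CPM in S24h and 509, 853 and 1170 CPM in S72h (lowest, median and highest). Its log2 fold change at 24 h against Control was -1.05 (standard error 0.38, edgeR adjusted p = 0.0624) and did not pass the test, though it did with the replicate number as a block (edgeR adjusted p = 0.039) and without S24h replicate 1 (edgeR adjusted p = 0.0354).

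miR-218-5p, which is abundant in motor neurons, was counted in 16 libraries at a mean of 97.1 CPM. In S6h all 6 libraries had it, at 40.5 to 322 CPM, and in S24h it was at 0 in 5 libraries and at 75.0 CPM in replicate 4. In S24h against S6h edgeR called it, with a log2 fold change of -3.83 (standard error 1.36, edgeR adjusted p = 0.0435). It passed the low filter mainly through libraries outside S24h, the 6 of S6h included, so this call too is given as a description. This call was lost with RLE, column total and upper quartile scaling, with the replicate block (edgeR adjusted p = 0.0601), with the filter of 6 libraries (edgeR adjusted p = 0.0526) and in 12 of 24 fits that left out a library, at edgeR adjusted p values of up to 0.087, while the log2 fold change stayed at or below -3.50. Against Control the value at 24 h was -3.72 (standard error 1.36, edgeR adjusted p = 0.0624) and it was called by DESeq2 (adjusted p = 0.024), by edgeR without a low filter (adjusted p = 0.0389) and by edgeR without Control replicate 1 or 4 or S24h replicate 4 (adjusted p = 0.0426, 0.0447 and 0.01), the last leaving S24h at 0 throughout.

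Over the 24 libraries, the tested miRNAs whose levels followed miR-132-3p most closely were miR-29a-3p (Spearman rho 0.73), miR-27a-3p (0.70) and miR-215-5p (0.70). For miR-9-5p they were miR-17-5p (0.54), miR-541-5p (0.47) and miR-101a-3p (0.47), and for miR-128-3p miR-532-5p (0.57), miR-99b-3p (0.51) and miR-503-5p (0.48). Between members rho was 0.42 for miR-9-5p and miR-132-3p, 0.31 for miR-9-5p and miR-128-3p and -0.02 for miR-128-3p and miR-132-3p. These are descriptions over libraries that share groups and scaling, and no member was among the closest miRNAs of another.

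Shares of counts are given for miRNAs known from other sources, with no test of the shares. The 5 miRNAs listed as erythroid (miR-451a, miR-144 and miR-486) took 10.4, 13.5 and 18.9% of the counts in Control (lowest, median and highest). The shares were 7.28, 11.6 and 12.4% in S6h, 2.97, 6.35 and 12.2% in S24h and 4.17, 6.15 and 17% in S72h. Over the 24 libraries miR-486b-5p and miR-486a-5p held 5.68 and 1.91% of all counts and miR-451a 2.79%. Most of this share was thus miR-486, and the counts do not name its source. Of the 5, edgeR called 3 lower in S24h than in Control, namely miR-451a, miR-486a-5p and miR-486b-5p. The last 2 are both miR-486 and had similar log2 fold changes of -1.26 and -1.22, so their calls are not taken as separate. The number called was 2 without S72h replicate 4 and 1 with upper quartile scaling or without Control replicate 1 or 5. It was 0 without S24h replicate 3, 5 or 6, and 4 with DESeq2. Skeletal muscle miRNAs took 3.42 to 9.02% in Control, 6.02 to 26.5% in S6h, 1.57 to 4.36% in S24h and 0.644 to 23.7% in S72h. None of the 5 muscle miRNAs was called against Control, and 3 (miR-1a-3p, miR-133a-3p and miR-499-5p) were called lower in S24h than in S6h. In that comparison edgeR also called miR-451a (adjusted p = 0.0337) and miR-223-3p (adjusted p = 0.0226) lower and miR-150-5p higher (adjusted p = 0.0121), of which miR-451a is erythroid and the others are leukocyte miRNAs. The median share of leukocyte and platelet miRNAs was 1.17, 1.03, 1.18 and 1.09% in Control, S6h, S24h and S72h, and none of the 6 tested was called against Control. The share of liver miR-122 was 0.371, 6.85 and 16% in Control (lowest, median and highest) and 0.221, 1.32 and 2.83% in S6h. It was 0.789, 1.85 and 5.22% in S24h and 0.477, 0.806 and 30% in S72h. Its tested arm was not called, with log2 fold changes of -2.64, -1.98 and 0.11 against Control at 6 h, 24 h and 72 h. The part of these shares in the detection of miR-132-3p and miR-9-5p was not tested.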

How the data were processed

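Small RNA libraries of serum EVs from 24 mice (6 in each of 4 groups) were analysed. Per the study's methods, the authors precipitated EVs with ExoQuick ULTRA, extracted RNA with a Norgen kit, prepared NEXTFLEX libraries, trimmed with cutadapt, aligned with Bowtie to GRCm38, kept reads as long as mature miRNAs and used featureCounts with miRBase for counting. The deposited values are raw counts per mature miRNA. How reads that align to several loci were counted is not given in the sources used here.

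Libraries were assigned to groups by their labels, and no 2 were identical. The members, the lists of other neural miRNAs and the marker lists were chosen with earlier results of these data known. The miRNAs named are the members, the other arms of their hairpins, miR-212, listed neural miRNAs past the low filter and the 3 most correlated tested miRNAs of each tested member. Other miRNAs (those of the detection rule, called miRNAs of the marker lists, and neural miRNAs under the low filter) were named after their values were seen. Levels are CPM of column totals. A count of 0 was given a limit of 3 counts. miRNAs with at least 10 CPM in at least 12 libraries were tested (252 of 1966; 3 of the 7 members). edgeR 4.0.16 (R 4.3.3) was used with TMM scaling and a quasi-likelihood model of all 4 groups. Thresholds for a call were 0.05 for the p adjusted by Benjamini-Hochberg and 1.5 for the fold change. Correlations used log2 TMM CPM with a prior count of 2. Alternatives were DESeq2 1.42.0, limma-voom (limma 3.58.1), RLE, column total and upper quartile scaling, other low filters, only the 2 groups compared, a replicate block, robust estimation and leaving out each library. The test was tried on simulated counts, where it called 46 of 98 tested miRNAs given a log2 change of 2 in either direction. It also called 1 unchanged miRNA. A miRNA that was not called is therefore not shown to be unchanged. p-values measure the spread between mice. Mature sequences came from RefSeq (1675 of 1966 names matched).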

Additional observations from a re-analysis of the deposited data

Results flagged for a closer look

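Each member was examined in each group with at least 1 count. In 7 of these 17 cases the highest or lowest library stood apart from the others. In 5 of the 7, 4 or 5 of the 6 libraries were at 0, where a few counts in 1 library are enough to set it apart, and where 5 are at 0 the measure is 1 by construction. The rate of about 1 in 20 that chance gives for such a mark therefore does not apply to these cases, and their number is not compared with it. The measure is the gap to the nearest library divided by the range of the group. It was 0.759 for miR-9-5p in S24h replicate 5, 0.801 for miR-9-3p in S6h replicate 2 and 1 for miR-9-3p in S72h replicate 4. It was 1 for miR-124-3p in Control replicate 6 and 0.812 for miR-124-3p in S6h replicate 1. For miR-132-3p it was 0.8 in S24h replicate 2 and 0.655 in S72h replicate 6. No library of miR-128-3p stood apart in this way. The cause was not tested.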

How the results depend on the processing

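The number of members called was 0 in each of the 6 comparisons and stayed 0 under DESeq2, RLE, column total and upper quartile scaling, no low filter, the models of only 2 groups and robust estimation. With limma-voom it was 2 in S24h against Control and 1 in S24h against S6h. With 10 CPM in at least 6 libraries it was 1 in S24h against S6h, where 323 miRNAs were tested and 16 were called higher and 40 lower. In both comparisons it ranged from 0 to 1 when libraries were left out singly, with 1 without S24h replicate 2. The cause was not tested.

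With the replicate block 0 members were called in all 6 comparisons. The replicate numbers did not pair the libraries, since 8 of 36 same-numbered pairs had a correlation of deviations over 0.1 (range -0.29 to 0.21) and 6 of 24 libraries correlated best with their own number.

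Small log2 fold changes turned direction. For miR-132-3p in S6h against Control they were -0.10 with DESeq2, -0.16 with limma-voom, -0.094 with RLE, -0.022 with column totals, -0.11 without a low filter and -0.37 with the replicate block. For miR-128-3p they were -0.084 with limma-voom and -0.028 with the block in S24h against S6h, and -0.0019 with DESeq2, -0.0018 with RLE and -0.022 with column totals in S72h against S24h. For miR-9-5p in S72h against S6h they were -0.32 with limma-voom and -0.66 with the block. With each library left out, miR-128-3p ranged from -0.042 to 0.28 (S6h) and from -0.028 to 0.40 (S24h) against Control, from -0.12 to 0.16 in S24h against S6h and from -0.029 to 0.28 in S72h against S24h. miR-132-3p ranged from -0.23 to 0.27 in S6h against Control and from -0.085 to 3.20 in S72h against S24h. miR-9-5p ranged from -2.51 to 0.13 in S24h against S6h, from -0.55 to 0.57 in S72h against S6h and from -0.19 to 2.58 in S72h against S24h.

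Of all tested miRNAs, the 30 calls in S24h against Control became 50 with DESeq2 and 47 with limma-voom. The 9 in S72h against Control became 27 with DESeq2, 19 with upper quartile scaling, 2 with column totals, 1 with the filter of 6 libraries, 0 with only the 2 groups and 1 with the block, and 1 to 14 with each library left out (1 without Control replicate 2 or 5 or S72h replicate 5). The 51 in S24h against S6h became 32 without S6h replicate 4 or 6 or S24h replicate 3. The 25 in S72h against S6h became 38 with limma-voom and 13 to 16 without S6h replicate 4 or 6 or S72h replicate 5, and the 1 in S72h against S24h became 4 with DESeq2, 10 without a low filter and 0 with limma-voom or only the 2 groups, and ranged from 1 to 5 with each library left out. The 0 in S6h against Control became 2 without a low filter. A single count was worth up to 15.6 CPM, and miR-132-3p had at least 2 counts in 1 S24h library.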

Other observations

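The 6 other neural miRNAs with a count that did not pass the low filter had 23 to 50 counts each over the 24 libraries. They include miR-219a-5p and miR-338-3p, which are known from oligodendrocytes, and miR-129-5p, miR-129-2-3p and miR-487b-3p, which are known from neurons. Together they were counted in 5 of 36 possible cases in Control, 10 in S6h, 5 in S24h and 7 in S72h, with 37, 71, 40 and 58 counts. These counts were too few for a test between groups. miR-487b-3p was counted in 3 S6h libraries and in no other group, with 23 counts in all, and miR-219a-5p had 22 counts in 1 Control library and 0 in S6h.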
